A study of Homo sapiens with 2 samples.

Results

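The genes described here are 34 genes of cholesterol and fatty acid synthesis with their sterol sensors, transcription factors and exporters, picked by symbol from the 60619 rows of the expression table. All 34 were found in the table and all 34 lay among its 13304 genes past the filter on low counts. They were measured by RNA sequencing of total RNA in HBEC-3KT, an immortalized human bronchial epithelial cell line grown as a flat culture on gelatin-coated plates for 4 to 5 days. One library came from cells transduced for 4 to 8 hours with a lentivirus carrying human CBS, the enzyme that joins homocysteine to serine, and the other from cells given the empty pLenti6 virus, and both cultures were selected with blasticidin at 10 µg/mL. The design asks what CBS expression does to transcription in relation to PRC2. Each group is 1 library, so every difference below is between these 2 libraries, with no replicates behind it and no test of the conditions.

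Cholesterol is built from acetyl-CoA through mevalonate, farnesyl diphosphate, squalene and lanosterol, and fatty acids are built from the same acetyl-CoA through malonyl-CoA. Both pathways are switched on by the sterol regulatory element-binding proteins (SREBPs), membrane-bound transcription factors that SCAP carries from the endoplasmic reticulum to the Golgi when sterol is scarce and that the INSIG proteins hold back when sterol is plentiful. SREBP2, from SREBF2, acts mostly on cholesterol genes and SREBP1, from SREBF1, mostly on fatty acid genes, with NF-Y and Sp1 as partners at many of their promoters. Liver X receptors (LXRs), which sense oxysterols, switch on the exporters.

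To show the regulatory sequence in question, 4 promoters follow, each as the 250 bases before the RefSeq start site in GRCh38.p14, 5′ to 3′ on the gene's strand. Capitals mark, on either strand, the NF-Y box CCAAT, the sterol regulatory element core TCACNCCAC and the E-box CACGTG. LXR elements are not marked. HMGCS1 and STARD4 are shown because both hold a pair of NF-Y boxes while HMGCS1 was higher and STARD4 lower with CBS. HMGCS1 has 2 windows, of which the upstream one is shown and the other holds no NF-Y box. SREBF2 is the gene of the set whose window holds the sterol element core, and ABCA1 is an LXR target without an NF-Y box. HMGCS1, STARD4 and SREBF2 were chosen for display after values had been seen.
HMGCS1 (chr5:43313413-43313662, minus strand): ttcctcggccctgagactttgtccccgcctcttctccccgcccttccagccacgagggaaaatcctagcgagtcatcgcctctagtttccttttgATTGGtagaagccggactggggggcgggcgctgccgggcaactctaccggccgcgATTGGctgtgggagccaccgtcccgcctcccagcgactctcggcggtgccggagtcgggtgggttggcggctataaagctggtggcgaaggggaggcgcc
STARD4 (chr5:111512536-111512785, minus strand): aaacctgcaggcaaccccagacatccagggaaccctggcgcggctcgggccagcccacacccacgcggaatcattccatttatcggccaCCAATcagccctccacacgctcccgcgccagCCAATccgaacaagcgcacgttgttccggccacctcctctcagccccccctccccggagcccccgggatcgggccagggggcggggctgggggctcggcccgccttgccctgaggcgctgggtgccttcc
SREBF2 (chr22:41832855-41833104, plus strand): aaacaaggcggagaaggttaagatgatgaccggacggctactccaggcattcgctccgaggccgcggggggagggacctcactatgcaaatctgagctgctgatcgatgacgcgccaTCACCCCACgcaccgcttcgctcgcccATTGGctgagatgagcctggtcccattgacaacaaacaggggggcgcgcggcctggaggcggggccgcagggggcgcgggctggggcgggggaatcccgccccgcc
ABCA1 (chr9:104928156-104928405, minus strand): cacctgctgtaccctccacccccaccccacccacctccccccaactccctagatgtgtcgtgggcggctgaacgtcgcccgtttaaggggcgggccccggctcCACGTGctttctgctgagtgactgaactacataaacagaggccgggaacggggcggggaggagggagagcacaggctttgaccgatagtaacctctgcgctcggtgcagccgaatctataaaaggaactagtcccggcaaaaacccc

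RefSeq windows of 300 bases, 250 before to 50 after a start site, were found for 30 of the 34 genes, 40 windows in all, and none for FDFT1, SQLE, FASN or ABCG1. Windows of one gene can overlap, so they do not count as separate promoters. The NF-Y box CCAAT stood in 25 of the 40 windows (62.5%), against 34.6% of all 35116 windows in the table and 35.0% of those of genes past the filter on low counts. By gene, 21 of the 30 held it, against 39.7% of all 27305 genes. Of those 21 genes, 9 had a counting interval above a ratio of 1 between the libraries, 9 below and 3 across it, with a median log2 fold of 0.01. The box thus stood before genes that were higher and before genes that were lower. The Sp1 box GGGCGG stood in 90.0% of the 40 windows, in 45.0% of all windows and in 66.2% of those of genes past the filter, which all members passed, and the E-box CACGTG in 15.0%, 7.26% and 9.16%. The sterol element core matched 1 of the 40 windows (2.5%), that of SREBF2, and 1.13% of all windows. The LXR repeat, AGGTCA written 2 times with 4 bases between, matched none of the 40 exactly and 0.0199% of all. Variants of these letters were not searched for. A window without a match, that of ABCA1 included, can therefore still hold a sterol or LXR element. Both strands were searched for exact letters, matches of different motifs were counted separately where they overlap, and a match describes letters in this window, not binding.

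The libraries held 20785957 and 20433062 counts for CBS and the empty vector. CBS itself, at 3669 against 280 counts, was 12.2-fold higher (10.8 to 13.9), the direction the labels give. In TPM it stood at 116.89 against 13.14, a smaller ratio that lies outside that counting interval. Sequence that CBS may share with other genes was not sought. All 14 basal cell markers passed the filter. Their summed TPM (a level per transcript length, scaled to a fixed total) was 5033 with CBS and 7647 with the empty vector. KRT14, KRT15, KRT17, KRT5 and TRIM29 were lower (35.7% of the 14, against 12.9% of all genes). NGFR was higher (7.14%, against 7.02%). TP63 at -0.04, EGFR at -0.03 and ITGA6 at -0.10 were near 0. DSG3 at -0.45, ITGB4 at -0.31, CDH1 at -0.24, DLK2 at 0.14 and EPCAM at 0.54 were also short of 1.5-fold. EPCAM passed it on plain library totals, at 0.61, and on log2(TPM + 1), at 0.78. KRT5 and TRIM29 lost their calls on log2(TPM + 1) and without the GC and length trend, and TRIM29 on plain library totals. Other cell types left few counts. Of 10 fibroblast markers, COL1A1 alone passed the filter and COL1A2, COL3A1, DCN, LUM and DPT had no count in either library, with summed TPM of 4.0 and 4.86. Of 12 immune markers, 2 passed and PTPRC, CD3E, CD2, MS4A1, LYZ and NKG7 had no count, and the summed TPM of 49.2 and 146.8 was mostly CD68. Of 10 endothelial markers, 2 passed and KDR, TEK and TIE1 had no count, with summed TPM of 8.75 and 9.95, although CDH5 reached 87 against 7 counts. Of 13 ciliated, secretory and alveolar markers, 1 passed, with summed TPM of 1.94 and 2.93. The part of these markers in the folds below was not tested. In bulk RNA, fewer cells of a type and less RNA per cell cannot be told apart.

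Transcripts of the 34 genes differed little between the libraries as a set. One gene, HMGCS1, was at least 1.5-fold higher with CBS, and 4 were at least 1.5-fold lower, INSIG2, SREBF1, STARD4 and ABCG1, counting only genes whose 95% counting interval excluded a ratio of 1. These are 2.94% and 11.8% of the genes, against 7.02% higher and 12.9% lower among all 13304 genes past the filter. The share that was lower was near that background. Of all genes, 934 were higher and 1712 lower here, against 1279 and 1467 on plain library totals and 1176 and 1093 in TPM. The median log2 fold was 0.04 over the 34 genes and 0.00 over all genes. Each log2 fold sets the CBS library over the other after TMM scaling, with a prior count of 5. The intervals, made without the prior count, cover counting error only. Summed TPM of the 34 was 4511 with CBS and 4393 with the empty vector. At 2-fold, 0 of the 34 were higher and 1 lower, against 1.41% and 5.28% of all genes, and at a log2 fold of 0.32, 5 were higher and 6 lower, against 19.2% and 21.6%. Once the dependence of folds on GC content and transcript length was taken out, 1 was higher and 3 lower, against 7.75% and 10.7%.

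**Figure D1:**
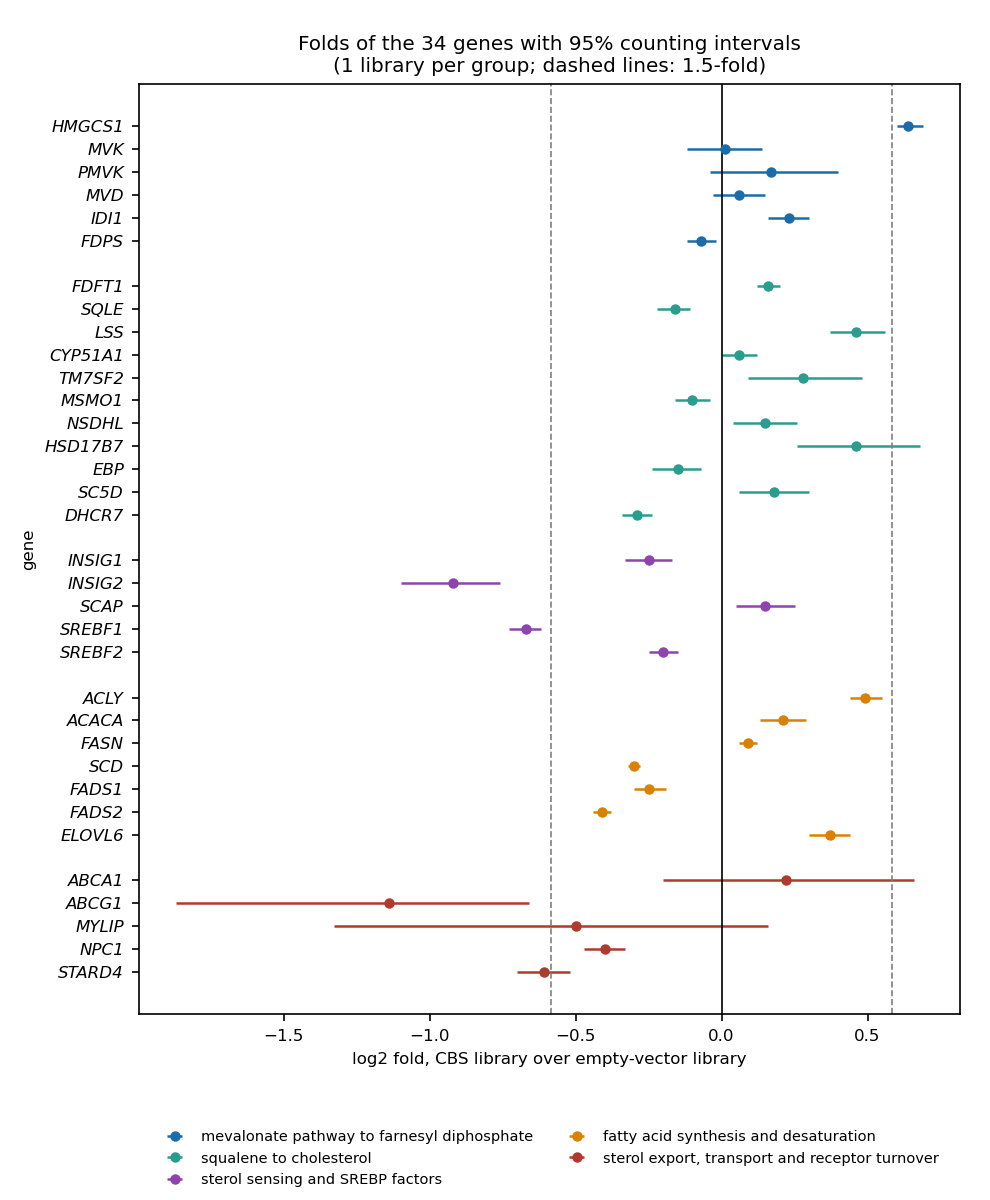
Log2 fold of each of the 34 genes (x axis, CBS library over empty-vector library) with its exact 95% counting interval, in the order of the pathway and coloured by role. HMGCS1 lies beyond the upper 1.5-fold line at 0.64, and STARD4, SREBF1, INSIG2 and ABCG1 lie beyond the lower one, at -0.61 to -1.14.

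Small differences were common. Of the 34 intervals, 14 (41.2%) were wholly above a ratio of 1, 15 (44.1%) wholly below and 5 spanned it, against 31.6% above and 31.1% below among all genes. These splits, here and by role below, take the TMM scaling as exact. On plain library totals the median log2 fold of all genes was 0.07, so intervals close to a ratio of 1 depend on the scaling. Narrow intervals go with high counts, and 27 of the 34 had at least 1000 counts in 1 library. Of these 27, 44.4% lay above and 48.1% below, against 43.5% and 37.0% of all 4404 genes with as many counts. In that deeper comparison, 3.7% of the 27 were at least 1.5-fold higher and 7.41% lower, against 5.36% and 8.54%. The threshold fell between close values: STARD4 at -0.61 and HMGCS1 at 0.64 lay just beyond 1.5-fold, while MYLIP at -0.50 and ACLY at 0.49 lay just short of it. Exon bases or near-identical sequence were shared with another gene by 16 of the 34, and reads on opposite strands there cannot be told apart, as no strand setting is given. The longest overlap was that of CYP51A1 with AC000120.2, 2844 exon bases on the same strand. HMGCS1 overlaps the antisense AC114947.2 by 703 bases, with 39 and 58 counts for the latter, FDPS overlaps RUSC1-AS1 by 693, NPC1 overlaps RMC1 by 604 and MVK overlaps MMAB by 306.

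**Figure D2:**
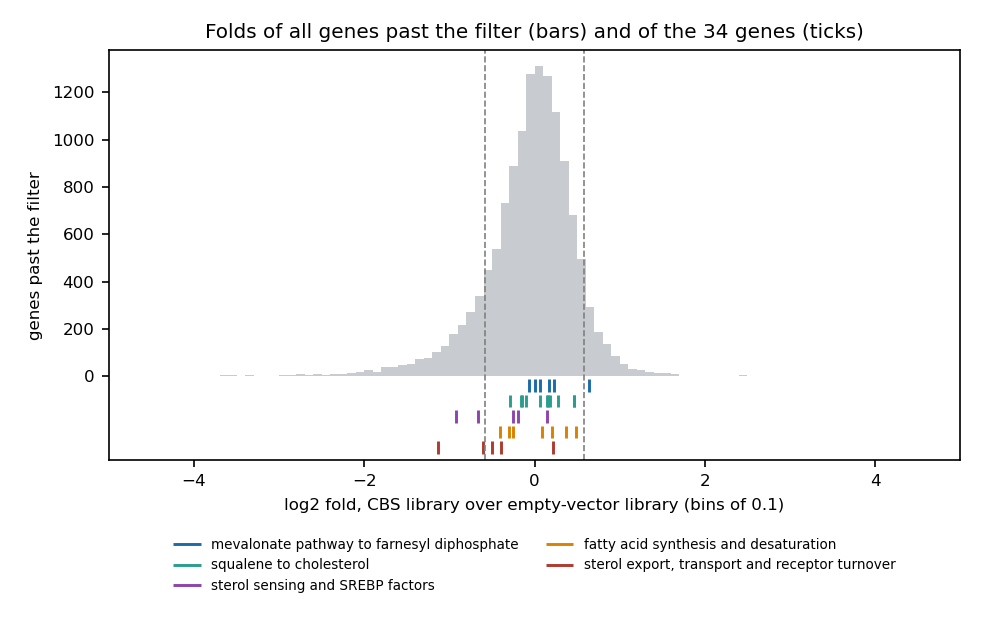
Number of genes past the filter per bin of log2 fold (grey bars) with the 34 genes as ticks below, 1 row per role, and dashed lines at 1.5-fold. All but 5 of the ticks lie between the lines, in the bulk of the distribution around 0.00.

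Levels spanned a wide range. In the empty-vector library the highest TPM was that of FADS2, the desaturase that starts polyunsaturated fatty acid synthesis, at 549.52, followed by SCD at 432.72, FDFT1 at 426.64, FASN at 402.26 and FDPS at 387.38. The lowest were ABCA1 at 0.54, MYLIP at 1.02 and ABCG1 at 1.78. In the CBS library FDFT1 ranked first at 519.44, ahead of FASN at 484.13 and FADS2 at 458.69, so the same 5 genes led in another order. The same 3 genes were lowest, at 0.69, 0.74 and 0.81 for ABCA1, MYLIP and ABCG1. Genes of the synthesis enzymes were thus far more abundant per length than the LXR targets ABCA1, ABCG1 and MYLIP in both libraries.

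**Figure D3:**
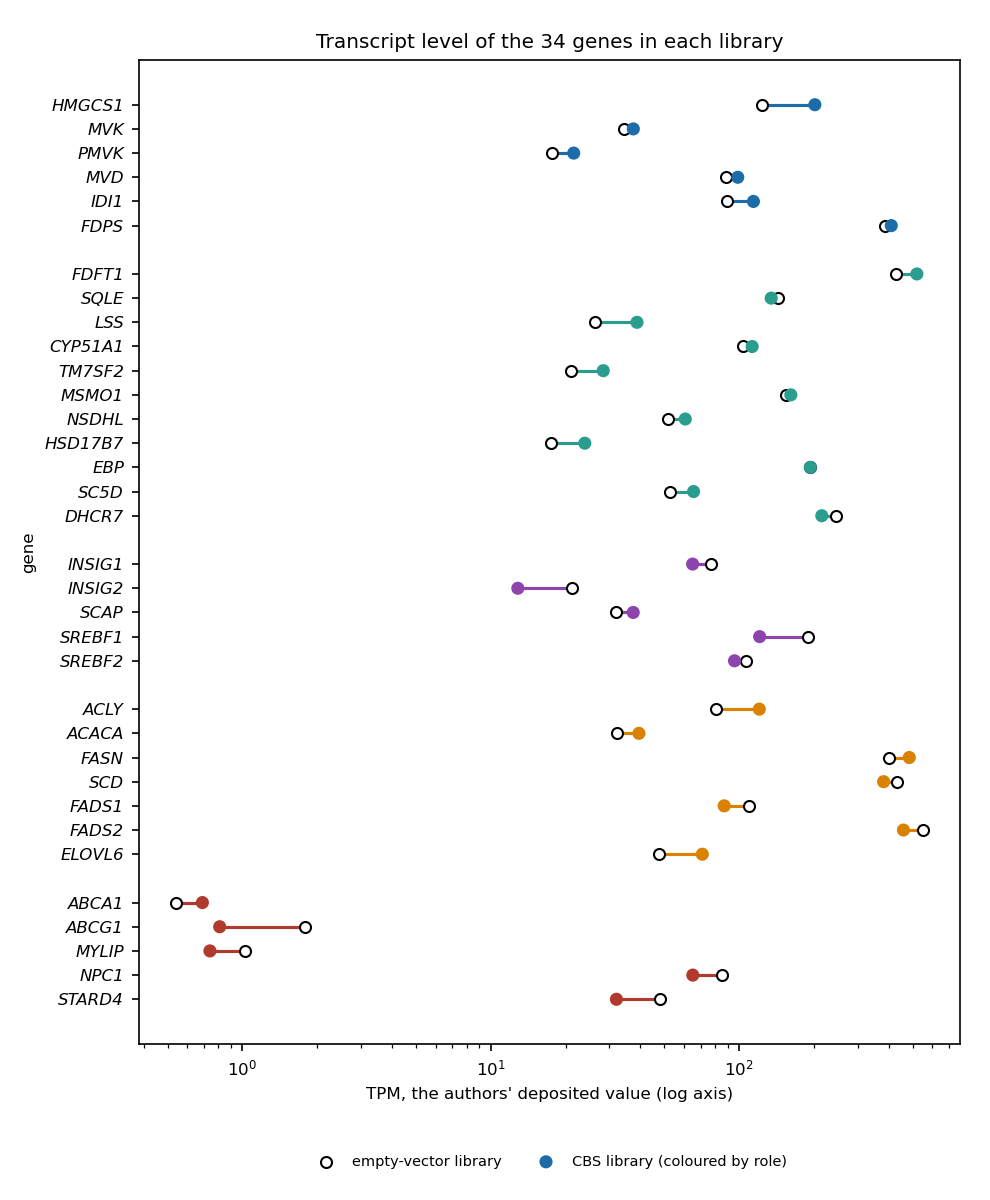
TPM of each gene in the empty-vector library (open circles) and the CBS library (filled circles), on a log axis, ordered and coloured as the plot of folds. Enzymes sit between 17.41 and 549.52, while ABCA1, ABCG1 and MYLIP sit at or below 1.78 in both libraries.

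The early mevalonate pathway held the highest fold. HMGCS1, the cytosolic synthase that makes HMG-CoA (ENSG00000112972, GRCh38 chromosome 5, 43289395 to 43313512), was counted 9517 times in the CBS library and 5694 times in the other, at 201.75 and 123.7 TPM. That was a ratio of 1.56 (1.51 to 1.61) and a log2 fold of 0.64 (0.60 to 0.69). With the GC and length trend removed its log2 fold was 0.54, short of 1.5-fold. Its TPM ranked 11 of the 34 with the empty vector and 7 with CBS. The next enzymes had smaller folds. MVK and PMVK, the kinases that phosphorylate mevalonate, were at 0.01 (-0.12 to 0.14) and 0.17 (-0.04 to 0.40), and MVD, the decarboxylase, was at 0.06 (-0.03 to 0.15). Without the GC and length trend these 3 were nearer to HMGCS1, at 0.20, 0.38 and 0.34. IDI1, the isomerase of the isoprenoid unit, had 3617 against 2875 counts and was at 0.23 (0.16 to 0.30). FDPS, which makes farnesyl diphosphate, had 6269 against 6152 counts and was at -0.07 (-0.12 to -0.02). Its sign turned with the measure, at 0.08 in the authors' TPM as log2(TPM + 1) and 0.04 without the GC and length trend. The 6 genes had a median log2 fold of 0.12, and their summed TPM was 883.2 with CBS and 740.7 with the empty vector.

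From squalene to cholesterol, 7 of 11 genes had an interval above a ratio of 1 and 4 below, and none reached 1.5-fold. Among all genes 31.6% lay above and 31.1% below, and among those of at least 1000 counts 43.5% and 37.0%. The median log2 fold was 0.15. Enzymes of lanosterol formation and removal of its methyl groups were unlike each other. LSS, lanosterol synthase (ENSG00000160285, chromosome 21, 46188141 to 46228824), stood at 2433 and 1647 counts and 38.79 and 26.19 TPM with CBS and the empty vector. Its log2 fold was 0.46 (0.37 to 0.56). LSS would pass 1.5-fold, at 0.66, with the GC and length trend removed. SQLE, the epoxidase just before it and a controlled step of the pathway, had 4955 against 5179 counts and was at -0.16 (-0.22 to -0.11). FDFT1, squalene synthase, was at 0.16 (0.12 to 0.20) with 11276 against 9432 counts.

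Among the later steps, CYP51A1, the lanosterol demethylase, was at 0.06 (0.00 to 0.12), and at -0.03 without the GC and length trend. TM7SF2, a sterol reductase that shares its step with LBR, had 491 against 376 counts and was at 0.28 (0.09 to 0.48), or 0.57 without that trend. MSMO1, the methyl sterol oxidase, had 4352 counts in each library and was at -0.10 (-0.16 to -0.04) once scaled, or 0.06 on log2(TPM + 1). NSDHL, the dehydrogenase that removes the carboxyl group, was at 0.15 (0.04 to 0.26), and HSD17B7, the ketoreductase that follows, at 0.46 (0.26 to 0.68) with 468 against 316 counts, some of which a near-identical pseudogene, HSD17B7P2, could share. EBP, the sterol isomerase, was at -0.15 (-0.24 to -0.07), and 0.00 on log2(TPM + 1), and SC5D, the desaturase, at 0.18 (0.06 to 0.30). DHCR7, which catalyses a final reduction to cholesterol, was the lowest of the 11, with 6438 against 7344 counts, 215.13 against 244.35 TPM and a log2 fold of -0.29 (-0.34 to -0.24), or -0.11 without the GC and length trend. The 17 cholesterol enzymes together had a summed TPM of 2437 with CBS and 2175 with the empty vector.

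Among the 5 sterol sensor and SREBP genes, the interval of 4 was below a ratio of 1, where 31.1% of all genes and 37.0% of those with at least 1000 counts lay, and the median log2 fold was -0.25. INSIG2, an anchor that keeps SCAP and SREBP in the endoplasmic reticulum (ENSG00000125629, chromosome 2, 118088452 to 118110997), was counted 445 times in the CBS library and 791 times in the other, at 12.85 and 21.24 TPM. Its ratio was 0.526 (0.467 to 0.591) and its log2 fold -0.92 (-1.10 to -0.76). INSIG1, the other anchor and itself an SREBP target, had 2278 against 2531 counts and 64.96 against 77.25 TPM, for a log2 fold of -0.25 (-0.33 to -0.17). The level of INSIG1 over INSIG2 was therefore 5.06 in TPM with CBS and 3.64 with the empty vector. The ratio of their count ratios was 1.6 (1.4 to 1.83), so both were lower with CBS and INSIG2 more so.

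SREBF1 (ENSG00000072310, chromosome 17, 17810399 to 17837002) was counted 3927 times in the CBS library and 5853 times in the other, at 120.93 and 190.07 TPM. Its log2 fold was -0.67 (-0.73 to -0.62), and -0.39, short of 1.5-fold, with the GC and length trend removed. Its exons overlap those of RAI1 by 556 bases on the opposite strand. SREBF2 had 6962 against 7462 counts and 95.8 against 106.12 TPM, for a log2 fold of -0.20 (-0.25 to -0.15), or -0.03 without the GC and length trend. SREBF2 over SREBF1 was 0.792 in TPM with CBS and 0.558 with the empty vector, and the ratio of their count ratios was 1.39 (1.32 to 1.47). SCAP, the escort protein, was at 0.15 (0.05 to 0.25) with 1832 against 1545 counts, or 0.42 without that trend. The table sums transcripts of each gene, so the SREBP1a and SREBP1c forms of SREBF1 are not separated, and cleavage of the SREBP proteins, which sets their activity, was not measured.

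Of the 7 fatty acid genes, ACLY, ACACA, FASN and ELOVL6 had intervals above a ratio of 1 and the desaturases SCD, FADS1 and FADS2 below. These were 57.1% and 42.9% of the 7, all of at least 1000 counts. Of all genes with as many counts, 43.5% lay above and 37.0% below. ACLY, which makes cytosolic acetyl-CoA from citrate, had 6613 against 4391 counts and 120.54 against 80.7 TPM, for a log2 fold of 0.49 (0.44 to 0.55). ACACA, which makes malonyl-CoA, was at 0.21 (0.13 to 0.29), and FASN, the synthase itself, at 0.09 (0.06 to 0.12) with 23014 against 20173 counts. ELOVL6, an elongase that extends palmitate, had 3520 against 2545 counts and was at 0.37 (0.30 to 0.44). SCD, which makes monounsaturated fatty acids, had 29474 against 33917 counts, the most of the 34 genes, and was at -0.30 (-0.32 to -0.28). FADS1 and FADS2, the desaturases of polyunsaturated fatty acids, were at -0.25 (-0.30 to -0.19) and -0.41 (-0.44 to -0.38). None of the 7 reached 1.5-fold, their median was 0.09, and their summed TPM was 1643 with CBS and 1655 with the empty vector. These 7 directions also held on plain library totals, on log2(TPM + 1) and with the GC and length trend removed, where FADS2 was at -0.20 and FASN at 0.44.

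FADS1 (chromosome 11, 61799625 to 61829318, minus strand) lies within the annotated bounds of FADS2 (61792980 to 61867354, plus strand), and 490 bases of their annotated exons overlap on opposite strands. Without a stated strand setting, reads there cannot be given to one gene with certainty. FADS2 over FADS1 was 5.27 in TPM with CBS and 5.02 with the empty vector, while the ratio of their count ratios was 0.893 (0.855 to 0.932), so TPM and counts gave opposite directions for this pair.

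Of the genes for sterol export, transport and receptor turnover, 3 of 5 had intervals below a ratio of 1 and 2 spanned it, where 31.1% of all genes lay below. ABCG1, an exporter to high-density lipoprotein (ENSG00000160179, chromosome 21, 42199689 to 42297244), was counted 35 times in the CBS library and 78 times in the other. The ratio was 0.419 (0.273 to 0.632) and the log2 fold -1.14 (-1.87 to -0.66), or -0.62 on log2(TPM + 1), a scale that shrinks the folds of such low genes. It was the one gene of the 34 that reached 2-fold, where 5.28% of all genes were lower, and with 1.78 TPM at most it was also among the 3 least abundant. ABCA1, the exporter to lipid-poor apolipoprotein, had 104 against 83 counts and was at 0.22 (-0.20 to 0.66). The ratio of the ABCA1 and ABCG1 count ratios was 2.79 (1.66 to 4.72), so these LXR targets differed in ratio by more than counting error. MYLIP, a ubiquitin ligase that degrades lipoprotein receptors, had 28 against 39 counts and was at -0.50 (-1.33 to 0.16), a difference not detectable at this depth.

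STARD4, a soluble carrier that moves cholesterol between membranes (ENSG00000164211, chromosome 5, 111496033 to 111512590), had 1674 against 2388 counts and 32.05 against 47.89 TPM. Its log2 fold was -0.61 (-0.70 to -0.52), and was just short of 1.5-fold on plain library totals at -0.54 and on log2(TPM + 1) at -0.56. NPC1, which lets cholesterol leave the lysosome, had 3031 against 3733 counts and was at -0.40 (-0.47 to -0.33). STARD4 is an SREBP target, as HMGCS1 is, and after TMM scaling the pair passed 1.5-fold in opposite directions.

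LSS and ABCG1 share chromosome 21 with CBS (43053191 to 43076943). LSS lies 3.11 Mb beyond it and was at 0.46, short of 1.5-fold, and ABCG1 lies 0.756 Mb before it and was at -1.14. Both gaps are to the native CBS gene, whereas the added CBS was carried by the lentivirus.

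**Figure D4:**
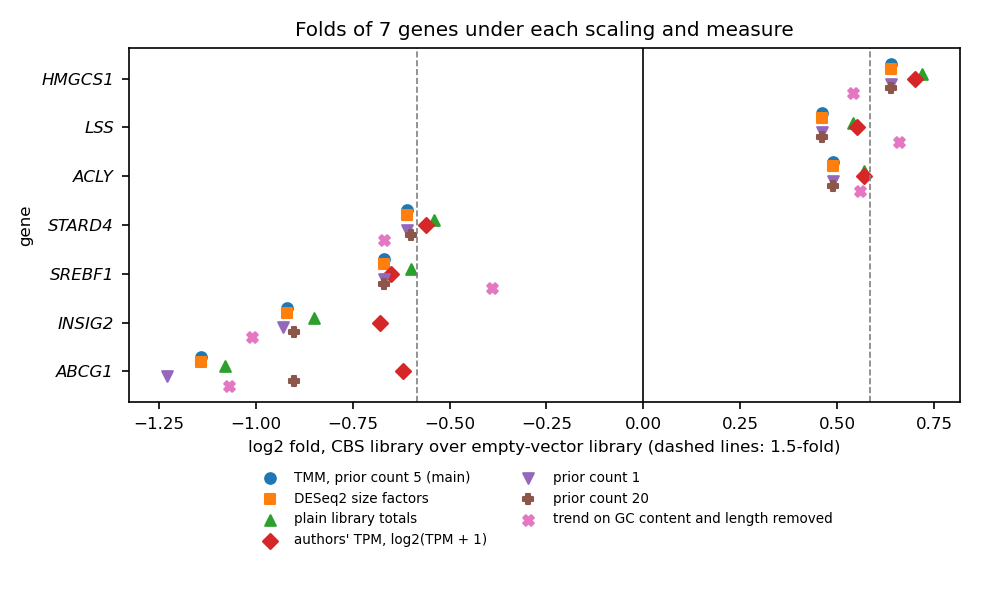
Log2 fold of the 5 genes past 1.5-fold, with LSS and ACLY, under each scaling and measure (symbols), with dashed lines at 1.5-fold. INSIG2 and ABCG1 stay beyond the line under every setting drawn, while HMGCS1, SREBF1 and STARD4 each cross it under at least 1 and no gene changes sign.

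Other genes around these pathways were taken from 8 lists written from general knowledge, with earlier results of these data known. Isoprenoid branch genes, which use farnesyl diphosphate for ubiquinone, dolichol and protein prenylation, had 2 of 18 genes higher and 1 lower, with a median log2 fold of 0.17. Here and in the lists below, calls stand beside 7.02% higher and 12.9% lower among all genes. DOLK, dolichol kinase, was at 0.63 (0.45 to 0.83), PDSS1, of ubiquinone side chain synthesis, at 0.60 (0.38 to 0.83) and SRD5A3, polyprenol reductase, at -0.68 (-0.85 to -0.52). PDSS1 was short of 1.5-fold without the GC and length trend, at 0.54, and at a prior count of 20, at 0.57, and SRD5A3 on log2(TPM + 1), at -0.45. Genes of SREBP processing and sterol-regulated degradation had 2 of 20 higher and none lower, with a median of 0.06. TMEM97, a sterol-responsive membrane protein that binds NPC1, had 1723 against 746 counts and was at 1.10 (0.98 to 1.24), and ERLIN1, an endoplasmic reticulum scaffold, was at 0.63 (0.50 to 0.78). RNF145, a sterol-responsive ubiquitin ligase, was at -0.55 (-0.62 to -0.48), short of 1.5-fold, and past it at -0.60 without the GC and length trend. Partners of the sterol enzymes and oxysterol enzymes had 9 of 13 genes past the filter, none higher and 1 lower, FAXDC2, a sterol hydroxylase family member, at -1.04 (-1.61 to -0.63), or -0.21 and not called on log2(TPM + 1). LBR, the reductase that can stand in for TM7SF2, was at 0.56 (0.44 to 0.68) and CYB5A, an electron donor, at 0.54 (0.35 to 0.76), and both passed 1.5-fold on plain library totals, at 0.63 and 0.62, and on log2(TPM + 1), at 0.67 and 0.61.

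Uptake, trafficking and esterification genes had 1 of 22 higher, SOAT1, a cholesterol esterifying enzyme, at 0.59 (0.41 to 0.78), and 4 lower, with a median of -0.07. LRP1, an endocytic receptor, had 734 against 2862 counts and was at -2.05 (-2.18 to -1.94), VLDLR, a lipoprotein receptor, was at -1.51 (-1.70 to -1.34) with 346 against 927 counts, and the sterol transfer proteins GRAMD1A and GRAMD1B were at -0.69 (-0.82 to -0.56) and -0.73 (-1.32 to -0.26). SOAT1 was short of 1.5-fold at a prior count of 20, at 0.57, on log2(TPM + 1), at 0.54, and without the GC and length trend, at 0.51. GRAMD1A was short of it without that trend, at -0.42, and GRAMD1B on log2(TPM + 1), at -0.20. SOAT1 and GRAMD1B are named here to complete these counts, after their values were seen. The list of LXR genes and targets had 1 of 11 measured genes higher and none lower. The higher gene was the transporter ABCG2, at 1.43 (1.12 to 1.87) from 246 against 82 counts. Whether ABCG2 is an LXR target in these cells was not tested. Intervals lay above a ratio of 1 for 27.3% of the 11 and below for 45.5%, against 31.6% and 31.1% of all genes. The LXR gene NR1H2 was at -0.50 (-0.62 to -0.38) and its partner RXRB at -0.48 (-0.62 to -0.33). The genes called in these lists stand beside the 7.02% of all genes that were higher and the 12.9% that were lower.

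Other fatty acid synthesis genes had 1 of 20 measured genes higher, ME1, the malic enzyme that supplies NADPH, at 0.75 (0.55 to 0.97), and none lower. HACD3, of chain elongation, was at 0.54 (0.44 to 0.64) and MCAT, of mitochondrial synthesis, at 0.43 (0.24 to 0.63). HACD3 passed 1.5-fold on plain library totals, at 0.61, and on log2(TPM + 1), at 0.64. MCAT passed it without the GC and length trend, at 0.63. Against 31.6% above and 31.1% below among all genes, intervals lay above a ratio of 1 for 7 of the 20 and below for 6. Those below, named after their values were seen, included the citrate carrier SLC25A1 at -0.33 (-0.41 to -0.24) and the elongation genes ELOVL1 at -0.19 (-0.27 to -0.10), ELOVL7 at -0.37 (-0.63 to -0.11) and TECR at -0.12 (-0.19 to -0.06), so supply and elongation genes were not all on the side of ACLY and ELOVL6. Acyl-CoA and glycerolipid genes had none of 23 higher and 3 lower, the lipin LPIN3 at -1.52 (-1.66 to -1.40) with 629 against 1697 counts and the acyltransferases AGPAT2 at -0.84 (-1.0 to -0.70) and AGPAT4 at -0.68 (-1.11 to -0.31). AGPAT4 had about the same TPM in both libraries, 2.28 and 2.33, so its call was lost on log2(TPM + 1), and AGPAT2 lost its call without the GC and length trend, at -0.52. In the opposed pathway of fatty acid oxidation, 3 of 25 were higher and 2 lower, with a median of 0.17. For each list in this paragraph, the shares among all genes were 7.02% higher and 12.9% lower. CPT1A, the carnitine transferase that admits long chains to mitochondria, had 1326 against 617 counts and was at 1.0 (0.87 to 1.15), while its relative CPT1B was at -2.37 (-2.91 to -2.06) with 57 against 296 counts. PPARD, a nuclear receptor of fatty acids, was at -1.24 (-1.36 to -1.13). The other higher genes, also named for the count after their values were seen, were SLC25A20, the carnitine carrier, at 0.92 (0.57 to 1.36) and HADH, an enzyme of the oxidation cycle, at 0.74 (0.57 to 0.93), or 0.50 and not called on log2(TPM + 1).

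**Figure D5:**
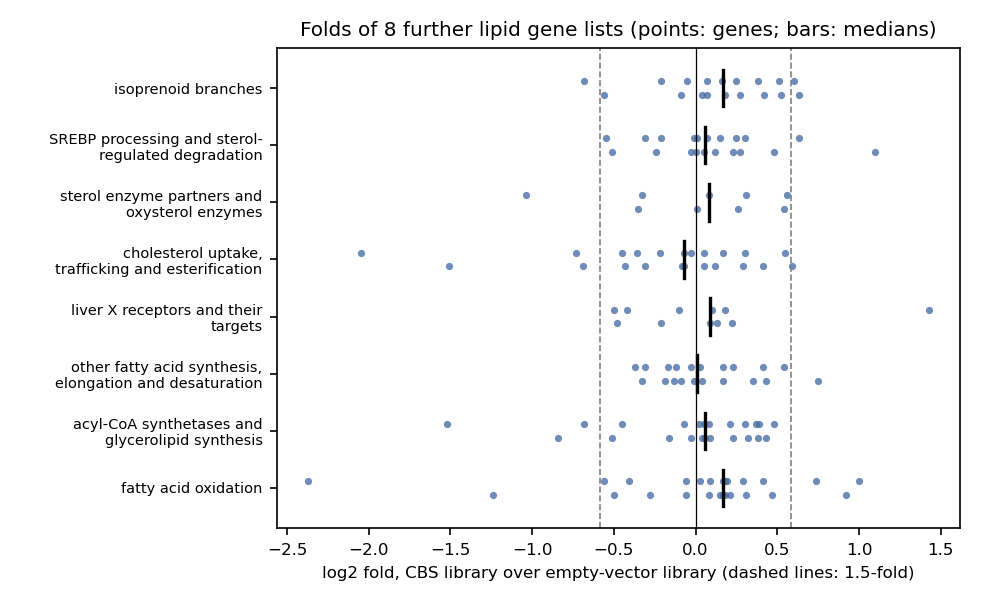
Log2 fold of each measured gene in 8 further lipid gene lists (points, CBS library over empty-vector library), with the median of each list as a black bar and dashed lines at 1.5-fold. Medians lie between -0.07 and 0.17, and most points lie between the lines.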

How the data were processed

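RNA was measured in 2 libraries, 1 per group, grouped by the labels. Trimmomatic 0.39, STAR 2.6.1d, RSEM 1.3.2 and GRCh38 come from the submitters' processing notes, which give no roles. Not given in the sources used here are the annotation release, strand setting and read layout. Expected counts for each gene were deposited (15.5% and 15.7% of values not whole) and were rounded here. TPM values were also deposited by the authors and were used as they stand. Genes with at least 10 counts in 1 library and a mean of 1 CPM were kept. TMM factors came from edgeR 4.0.16 and size factors, an alternative, from DESeq2 1.42.0 (R 4.3.3), with no model fitted. Intervals are exact (Clopper-Pearson, conditional binomial), and those between 2 genes are exact conditional odds ratios. They cover counting error only, and reads copied by PCR are not separate molecules. Folds and intervals were tested on data simulated with counting (Poisson) error alone, the error that the intervals assume. That checks the computation, and cannot show variation between cultures or in scaling.

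A gene was called at 1.5-fold with an interval that excludes a ratio of 1. The members and lists were chosen with earlier results of these data known. All 34 members are named. For each other list the rule names up to 3 genes with the largest absolute fold, at least 100 counts and such an interval. Genes named beyond it, to complete a count or a marker list, were chosen after their values were seen (KRT5, TRIM29, NGFR, TP63, EGFR, ITGA6, DSG3, ITGB4, CDH1, DLK2, EPCAM, CDH5 and those so described in the text). Of 254 list entries, 253 matched 1 gene ID and ACSL6 did not. The longest GENCODE 29 transcript gave length and GC content for 99.4% of kept genes, and lowess (statsmodels 0.14.6, span 0.3) fitted the trend taken out. Near copies were sought with BLAST 2.17.0 (95% identity over 300 bases) and exon overlaps of 50 bases in GENCODE 29. Promoters are RefSeq windows of GRCh38.p14.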

Additional observations from a re-analysis of the deposited data

How the results depend on the processing

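The count of 1 gene at least 1.5-fold higher was also found with scaling by DESeq2 or by plain totals, in TPM, at prior counts of 1 and 20, and without a filter or with one of 100 counts, although once the GC and length trend was taken out the gene was LSS and not HMGCS1 (0.54). SREBF1 also lost its call there, at -0.39. STARD4 lost its call on plain totals and in TPM, where, as with the filter of 100 counts and the GC and length trend removed, 3 genes were lower. The filter of 100 counts left 32 members and 11040 genes, of which 730 were higher and 1139 lower. Without that trend, 7.75% of all genes were higher and 10.7% lower. A fold of 2 left 0 of the 34 higher and 1 lower, against 1.41% and 5.28% of all genes. A log2 fold of 0.32 gave 5 higher and 6 lower, against 19.2% and 21.6%. Without the 16 members that share exons or near-identical sequence with another gene, 0 of 18 were higher and 2 lower, against 7.02% and 12.9% of all genes. Among genes of at least 1000 counts, a setting chosen after seeing the data, 1 of 27 members was higher and 2 were lower. Of all genes with as many counts, 5.36% were higher and 8.54% lower. The median log2 fold of the members stayed between 0.01 and 0.12. Over all 13304 kept genes, 934 were higher and 1712 lower, against 1279 and 1467 on plain totals and 1176 and 1093 in TPM, where the median of all genes was 0.07 and 0.09. DESeq2 factors gave 925 and 1721, a prior count of 1 gave 965 and 1747 and one of 20 gave 784 and 1502. Without a filter, 1198 of 60619 genes were higher and 2339 lower. In TPM, calls kept the interval of the counts. No called member changed sign. No paired analysis was possible because each group is 1 library, and no library could be left out for the same reason. Depth limited ABCA1, ABCG1 and MYLIP, with at most 104 counts.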
